A study of Mus musculus with 8 samples.

Results

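The array used in this study carries, beside probes for named genes, 60-base probes against transcripts that the array design annotates as intergenic noncoding RNAs, each named only by a stretch of a chromosome and a strand. Every non-control probe whose name was such an interval with a forward or reverse letter was taken, except in the stretch of chromosome 12 that surrounds the deleted cluster (104 probes of 22 regions). This gave 16077 of 55681 non-control probes. They cover 4585 strand-specific regions, 2303 forward and 2282 reverse, of 34797 gene names and regions on the array. The choice used names and positions and no measured value.

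Livers came from C57BL/6J pups taken by caesarean at E19.5, with tissue collected 4 h after delivery. The knockout group (4 samples) lacked the miR-379/miR-410 microRNAs on the chromosome inherited from the mother, and the wild-type group (4 samples) were littermates without it. The deletion was in the germ line, so every cell type of the liver carried it, and nothing else in the labels distinguishes the groups. The design text calls the samples biological replicates, and the labels give no sex. RNA from a piece of the large lobe was labelled with Cy3 and hybridised to 1 Agilent array per sample, and all 8 arrays lay on 1 slide, with wild-type samples in one column and knockout samples in the other. Genotype and slide column therefore cannot be told apart.

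Long noncoding RNAs are transcripts that encode no known protein. Many are spliced and polyadenylated like messenger RNAs, most are made at low levels, and their expression is often restricted to a few tissues or stages. Some act in the nucleus on nearby genes or on chromatin, such as Xist on the inactive X chromosome. Others, such as Norad, act in the cytoplasm, and for most annotated intergenic transcripts no function is known. The miR-379/miR-410 microRNAs are themselves cut from a long noncoding RNA of the imprinted Dlk1-Dio3 domain, expressed from the maternal chromosome, and Mirg is part of that transcript unit.

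The probe sequences below are those on which the results turn, copied from the array files, 5′ to 3′, with positions on mm9. The first pair are the probes that passed the test between genotypes, followed by a probe for the opposite strand of the chromosome 10 locus, 39787 bp from the first. The next pair are the largest upward and the largest downward difference among probes whose groups did not overlap. The last 3 are among the brightest. Capitals mark the letters AATAAA, the usual polyadenylation signal of mammalian messenger RNAs.
A_30_P01024970, chromosome 10, 83224650 to 83224709, forward: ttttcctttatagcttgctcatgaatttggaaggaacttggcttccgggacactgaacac
A_30_P01031758, chromosome 15, 83185717 to 83185776, reverse: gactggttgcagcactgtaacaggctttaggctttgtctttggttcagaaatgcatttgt
A_30_P01021411, chromosome 10, 83184863 to 83184922, reverse: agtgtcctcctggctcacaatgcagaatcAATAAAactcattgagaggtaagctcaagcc
A_30_P01023935, chromosome 11, 95490654 to 95490713, forward: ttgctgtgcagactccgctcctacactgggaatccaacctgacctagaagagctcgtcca
A_30_P01030913, chromosome 14, 21036245 to 21036304, reverse: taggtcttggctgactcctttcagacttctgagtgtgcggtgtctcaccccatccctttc
A_30_P01022075, chromosome 17, 17482318 to 17482377, reverse: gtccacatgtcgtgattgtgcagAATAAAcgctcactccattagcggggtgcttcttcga
A_30_P01031754, chromosome 19, 5802130 to 5802189, reverse: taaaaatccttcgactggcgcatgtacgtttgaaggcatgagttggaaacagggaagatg
A_30_P01031448, chromosome 14, 78936616 to 78936675, forward: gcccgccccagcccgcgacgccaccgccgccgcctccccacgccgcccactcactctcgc

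Searched in the listed strand of every probe, AATAAA was present in 3.93% of the noncoding probes and in 12.6% of the other non-control probes. Its reverse complement TTTATT, which cannot share bases with it, was present in 3.03% and 4.03%. Noncoding probes well above background on at least 4 arrays held AATAAA in 3.69% of cases and the rest in 4.13%.

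The regions are long compared with the probes. Their median length was 10676 bp, with quartiles of 1747 and 25851 bp, and each was read by 1 to 10 probes (median 3), with 690 regions read by 1 probe. Many annotated intervals overlap one another. Merging overlapping intervals on the same strand reduced the 4585 regions to 3349, so regions are not independent units, and probes of a region share its transcript. Without regard to strand the regions fall at 3524 intervals, of which 1061 were probed on both strands. No 60-base sequence occurred more than once, and 118 noncoding probes had no chromosome position in the array files. Of the 16077 noncoding probes, 28 were flagged as outliers on an array and left out, which left 16049.

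Values are log2 of the processed signal minus the 75th percentile of the array, so a level of 0 equals that percentile, and a difference of 1 is a doubling. The labelled tissue was checked with 8 hepatocyte genes, including Alb and Apoa1, all of which were well above background on every array. None of them passed the test between genotypes. Mirg, the RNA from the unit that holds the deleted cluster, stood at 2.37, 2.49, 2.40 and 2.40 in the wild-type samples and at 0.04, -0.08, -0.65 and -0.48 in the knockout samples. The difference was -2.71 with a standard error of 0.15 (limma, adjusted p = 0.00027, n = 4 and 4). The groups of Mirg did not overlap. Its probe was still well above background on all 4 knockout arrays, at a mean of -0.29, above the median of -0.95 over all kept probes. Whether the probe lies inside the deleted stretch was not determined.

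Each array numbered 4 was the best fitted of its group by a mixture of the other arrays. Wild-type replicate 4 was fitted by replicates 1 to 3 with a root mean square deviation of 0.263 log2, and knockout replicate 4 by its replicates 1 to 3 with 0.214. The other arrays gave 0.265 to 0.428. Wild-type replicate 4 was thus hardly better fitted than knockout replicate 3 (0.265). Xist was detected in knockout replicates 1, 2 and 4 (1.97, 1.75 and 0.11) and in none of the wild-type samples. Ddx3y, on the Y chromosome, was detected in wild-type replicates 1, 2 and 4 and in knockout replicates 3 and 4. Wild-type replicate 3 showed neither Xist (-7.53) nor Ddx3y (-7.42). Pancreatic genes reached a summed level between 4.69 and 7.24 in wild-type samples and between 4.03 and 4.71 in knockout samples. Skeletal muscle genes reached -0.39 to 1.21 and -1.44 to -1.10. Of 4 kept skeletal muscle genes Myl1 alone passed the test, lower in knockout samples by 3.28 log2 (SE 0.42, adjusted p = 0.0277, limma). Without replicate 4 its adjusted p was 0.349. None of 6 kept pancreatic genes passed. The part of sex and of these other tissues in the differences below was not tested beyond the fits with Xist or Ddx3y as a covariate, and counts are given with and without both replicate 4 arrays. Xist was detected in knockout samples alone, so the fit with Xist cannot separate sex from genotype.

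Noncoding probes were detected less often than the other probes on all 8 arrays. By array, the share lay between 39.9% (wild-type 2) and 51.1% (wild-type 4), with 44.9% ± 4.87 (SD, n = 4) in wild-type and 44.5% ± 1.34 (SD, n = 4) in knockout samples. The ranges of the genotypes overlapped. The other probes of the same arrays reached 64.6% to 70.9%. Over all 8 arrays, 5836 noncoding probes (36.4%) were well above background on every array and 6858 (42.7%) on none, against 62.4% and 25.5% of the other probes. A probe not well above background has an upper bound only, and its transcript may be present below that bound.

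**Figure D1:**
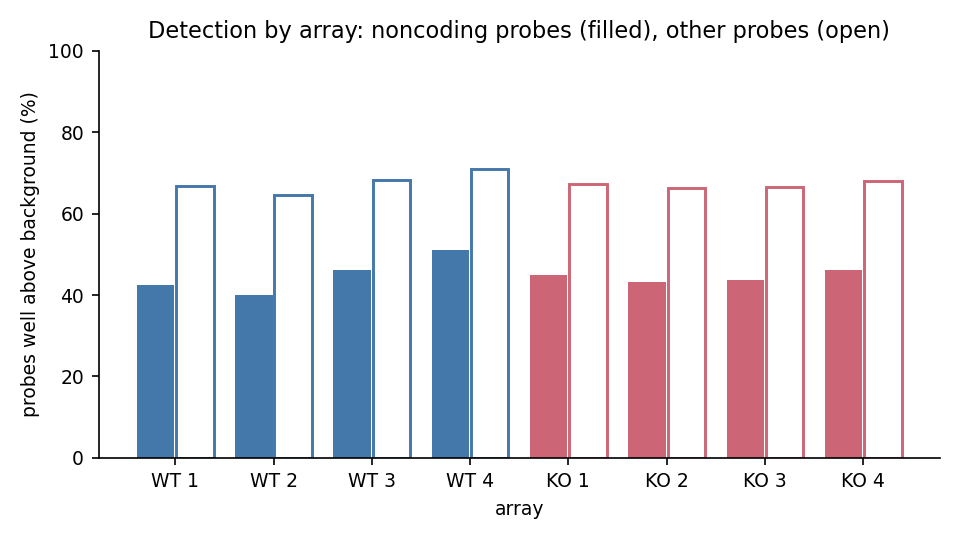
Share of probes well above background on each array (y axis, percent), for noncoding probes (filled bars) and all other non-control probes (open bars), in wild-type (WT, blue) and knockout (KO, red) samples. Noncoding probes lie between 39.9% and 51.1% and the other probes between 64.6% and 70.9%, and wild-type replicate 4 has the highest share of both kinds.

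The 7162 noncoding probes (44.6%) that passed the detection call on 4 or more arrays were kept for all tests, beside 67.3% of the other probes. They belong to 3207 regions. Among 3356 regions read by at least 3 probes, 632 had all their probes kept, 826 had none, and 1898 had some kept and some not. The median level of kept noncoding probes was -3.11, whereas that of kept other probes was -0.07. This filter takes arrays of either genotype, so a probe bright in one genotype alone could pass it.

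Detection was more frequent with a higher G and C content of the probe. Among noncoding probes with a GC content under 35%, 18.2% were kept. The share was 36.0% from 35% to 40%, 41.4% from 40% to 45%, 43.1% from 45% to 50%, 61.0% from 50% to 60%, and 76.5% at 60% or more. The median level of kept probes was lowest from 45% to 50% (-3.26) and highest at 60% or more (-2.49), with no steady rise over the classes below 60%. These are probe properties as well as transcript properties, and these were not separated.

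By chromosome, the share kept ran from 37.8% of 736 probes on chromosome 9 to 52.1% of 964 probes on chromosome 5. Chromosome 19 followed chromosome 5 with 51.6%, and chromosomes 13 and X were near the low end with 39.2% and 39.6%. On each chromosome the share moved by several percentage points between arrays, for example from 31.8% to 43.9% on chromosome 9 and from 46.9% to 56.8% on chromosome 19. Most neighbours in this order lay within each other's range. Every array reads every chromosome, so the ranges here and below include shifts of whole arrays. Their overlap therefore does not test the order. The other probes followed a different order, with the lowest share on X (60.4%) and the highest on chromosome 11 (74.1%).

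The median level of kept noncoding probes ran from -3.54 on chromosome 9 to -2.54 on chromosome 14. On chromosome 14 the array medians lay between -2.71 and -2.53, above those of chromosome 9, which lay between -3.67 and -3.31. The chromosomes between them overlapped with their neighbours. The span between the highest and lowest chromosome medians was 0.99, and it was 0.42 after normexp background correction with quantile normalization.

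**Figure D2:**
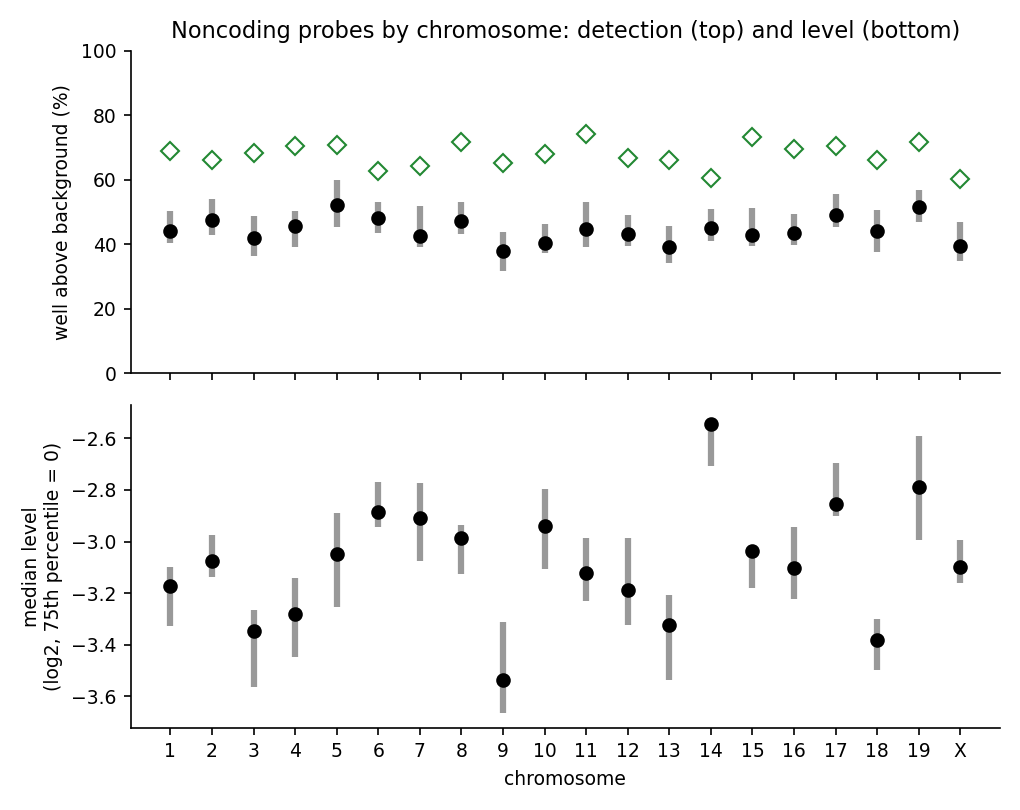
Noncoding probes by chromosome. The upper panel gives the share well above background in percent, as black points for the share on at least 4 arrays and grey bars for the range over the 8 arrays, with green diamonds for other probes, and the lower panel gives the median log2 level of kept noncoding probes with the range over arrays. Chromosome 9 is lowest in both panels (37.8% and -3.54), chromosome 5 has the highest share (52.1%) and chromosome 14 the highest level (-2.54).

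Of the forward-strand probes 42.0% were kept, and of the reverse-strand probes 47.3%. The share by array ran from 37.4% to 48.9% on the forward strand and from 42.5% to 53.4% on the reverse strand. The median level was -3.20 on the forward and -3.03 on the reverse strand, a gap of -0.16 that shrank to -0.03 when only probes well above background on all 8 arrays were used.

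At the intervals probed on both strands, a kept probe on each strand was the most frequent case. A strand counts as detected once any of its probes is kept. The share expected if the strands were unrelated was not worked out, so no link between the strands is read from these counts. Of 1060 such intervals with complete values, 660 (62.3%) had a kept probe on each strand, 314 (29.6%) on one strand and 86 (8.11%) on neither. The one-strand cases were split evenly, 155 forward and 159 reverse. These counts depend on the detection call: with any single array sufficient, 98 were forward only, 91 reverse only and 43 silent on both.

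Probes in regions that also hold a gene probe on the same strand were detected more often. In the 893 such regions 53.2% of probes were kept, with a range over arrays of 48.6% to 59.0%. The share was 39.4% in 458 regions with a gene probe on the opposite strand only (at most 47.4% by array) and 43.1% in 3233 regions with neither (38.3% to 49.5%). The lowest array of the first class lay above the highest of the second, and below the highest of the third. Every array reads every class, so these ranges include shifts of whole arrays, and the classes were not compared array by array.

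The 10 brightest noncoding probes had mean levels between 7.24 and 8.50, and none of them differed between genotypes (differences from -0.06 to 0.22, smallest adjusted p = 0.43, limma). The brightest, A_30_P01026458 in chr11:22681800-22707775, reverse strand, read 8.54, 8.57, 8.49 and 8.42 in wild-type and 8.54, 8.48, 8.50 and 8.46 in knockout samples. It lies beside an unnamed gene probe on its own strand. A_30_P01022075 read 8.15 to 8.46 in wild-type and 8.41 to 8.47 in knockout samples. Another probe of its region, A_30_P01025369, read 7.47 to 7.67 and 7.60 to 7.72. The groups overlapped for each of these probes.

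Probe A_30_P01031754 lies 6297 bp from a probe that the array names NEAT2, an older name of Malat1, a nuclear RNA found in many tissues at high levels. It read 8.02, 8.42, 8.17 and 8.20 in wild-type and 8.47, 8.26, 8.55 and 8.42 in knockout samples, a difference of 0.22 (SE 0.10, adjusted p = 0.43, limma). The groups overlapped, since knockout 2 was below wild-type 2. Its region, chr19:5801802-5802597, reverse strand, had 3 kept probes with differences from 0.15 to 0.32. The Malat1 gene probe had a mean of 1.93 ± 0.07 (SD, n = 4) in wild-type and of 2.27 ± 0.14 (SD, n = 4) in knockout samples, a difference of 0.34 with an adjusted p of 0.18 (limma), and its groups did not overlap.

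Of the 10 brightest probes, 4 had a GC content of at least 70%, a class that holds 1.03% of all noncoding probes. A_30_P01031448, in this class, read between 8.31 and 8.53 in wild-type and between 8.32 and 8.42 in knockout samples. A_30_P01020015, also in this class, lies 3 bp from a probe for BC031453, in a region with 3 kept probes and differences from -0.04 to 0.09.

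Across the genome the noncoding probes differed little between genotypes. The median difference, knockout minus wild-type, was 0.05, beside 0.02 over all kept probes, and 62.0% of the noncoding differences were above 0 beside 55.8% of all kept probes. The median was 0.08 without replicate 4 of both groups and 0.02 without wild-type replicate 1. It was -0.02 after normexp background correction and -0.003 with Xist as a covariate, so its direction is not settled. The chromosome medians were all above 0 and ran from 0.02 on chromosome 17 to 0.08 on chromosome 4, and on X, with 228 kept probes, the median was 0.07. On the forward strand it was 0.06 and on the reverse strand 0.05.

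**Figure D3:**
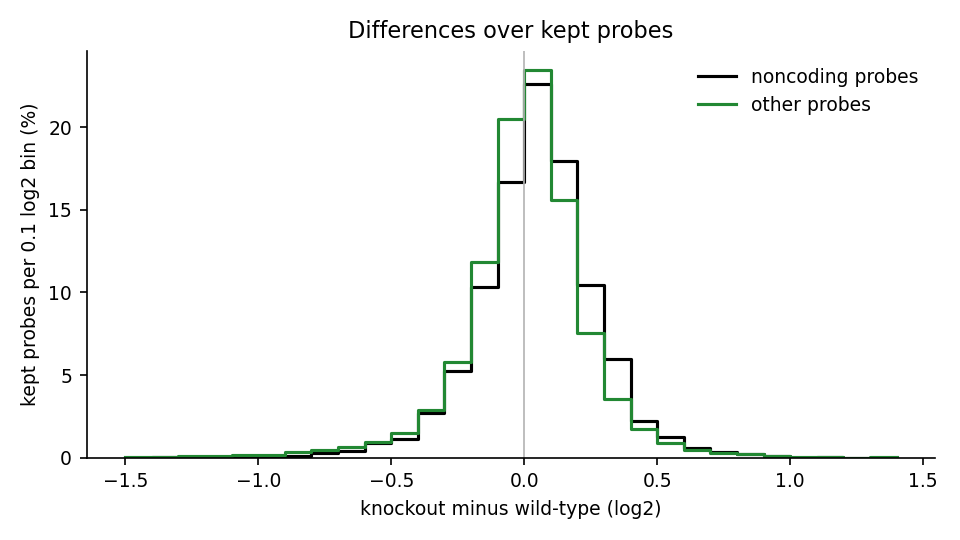
Distribution of the log2 difference, knockout minus wild-type, over 7162 kept noncoding probes (black) and 26559 other kept probes (green), as the percentage of each set per bin of 0.1. Both peak just above 0, with medians of 0.05 and 0.02, and the noncoding curve is shifted slightly to the right.

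Among the 7162 kept noncoding probes, 2 rose in the knockout samples and 0 fell (limma, adjusted p under 0.05). Over all 33769 kept probes 0.0296% rose and 0.178% fell, and 0.207% passed in either direction. Without replicate 4 of both groups 0 noncoding probes passed, where 0.0326% of all probes did. At an unadjusted p under 0.05 there were 667 noncoding probes (9.31%), against 12.4% of all kept probes. The groups did not overlap for 255 noncoding probes that were higher (3.56%) and 106 that were lower (1.48%) in the knockout samples, where all kept probes gave 4.23% in each direction. The higher share was close to that of the array as a whole and the lower share was below it. The median 95% confidence interval of a noncoding difference was 0.33 to either side, beside 0.26 for other probes.

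At the locus on chromosome 10, the called probe was 1 of 8 neighbouring probes that separated the groups. The longer annotated region, chr10:83181374-83249774, forward strand, was read by 5 probes, all kept. A_30_P01024970, the called probe, read -2.55, -2.50, -2.38 and -2.53 in wild-type and -2.01, -1.96, -2.02 and -1.93 in knockout samples. Every knockout sample was above every wild-type sample. The difference was 0.51 with a standard error of 0.07, or 1.43-fold (limma, adjusted p = 0.0345, n = 4 and 4). Without replicate 4 it was 0.48 with an adjusted p of 0.472, and after normexp background correction it was 0.27 with an adjusted p of 0.0903. Over all alternatives the adjusted p ran from 0.0034 to 0.472.

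The other 4 probes of that region were also higher in every knockout sample than in any wild-type sample, by 0.30, 0.39, 0.50 and 0.50, with adjusted p-values from 0.071 to 0.228. The shorter overlapping region, chr10:83185606-83225506, forward strand, had 3 kept probes, and in these too every knockout sample was above every wild-type sample, by 0.34, 0.31 and 0.46, none past the threshold. All 8 probes lie within 844 bp, from 83224650 to 83225493, around a probe for 1500009L16Rik, a gene the array annotates there on the same strand. That gene probe read -4.34, -3.97, -4.75 and -4.54 in wild-type and -3.84, -3.29, -3.98 and -3.76 in knockout samples, a difference of 0.68 with an adjusted p of 0.227 (limma). Its groups overlapped slightly, at wild-type 2 and knockout 3.

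Another forward-strand region, chr10:83181374-83249918, has the same start and a kept probe 25204 bp further on. That probe, A_30_P01026434, read -1.80, -1.78, -1.98 and -1.90 in wild-type and -1.73, -1.90, -1.97 and -1.87 in knockout samples, a difference of -0.01. The groups thus differed at the 844 bp stretch and not at this distant probe. Whether the distant probe reads the same transcript is not known.

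On the opposite strand of the locus 5 probes were kept, with differences from -0.05 to 0.11, and none separated the groups. They lie 24619 to 39787 bp from the called probe, so no kept probe reads the opposite strand of the 844 bp stretch and the strands cannot be compared there. A_30_P01021411 read 0.83, 0.49, 0.66 and 0.68 in wild-type and 0.77, 1.04, 0.56 and 0.74 in knockout samples, a difference of 0.11. Averaged over its 5 probes, the forward-strand region differed by 0.44 (SE 0.08, adjusted p = 0.078, limma on region means), and by 0.45 without replicate 4 (adjusted p = 0.535). No noncoding region passed when region means were tested (smallest adjusted p = 0.0622).

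The second called probe, A_30_P01031758, lies in chr15:83181291-83197750, reverse strand. It read -4.15, -4.25, -4.26 and -4.25 in wild-type and -3.61, -3.64, -3.35 and -3.46 in knockout samples, again without overlap. The difference was 0.71 (SE 0.08), or 1.64-fold, with an adjusted p of 0.0189 (limma, n = 4 and 4). It was 0.68 without replicate 4 (adjusted p = 0.356), and 0.14 after normexp background correction (adjusted p = 0.379). The adjusted p ran from 0.0011 to 0.379 over the alternatives.

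Its neighbours did not move in the same way. Of the 5 probes of the region 3 were kept, and the other kept probes differed by 0.49 and 0.32. In both, knockout samples 3 and 4 were above every wild-type sample. A_30_P01019340 read -4.45, -4.87, -4.69 and -5.17 in wild-type and -4.40, -4.87, -3.87 and -4.08 in knockout samples, so knockout 1 was just above the wild-type samples and knockout 2 among them. Both lay among the wild-type samples for A_30_P01020716, which read -2.22, -2.06, -2.54 and -2.35 in wild-type and -2.24, -2.30, -1.68 and -1.66 in knockout samples. A gene probe for 1700001L05Rik on the same strand showed the same division, with -2.23 and -2.34 in knockout 1 and 2 and -1.73 and -1.76 in knockout 3 and 4. Within 100 kb on this strand, 10 further noncoding probes of other regions had a median of 0.14 and 2 of them separated the groups, and the other 6 gene probes differed by 0.04 to 0.21. None of the forward-strand probes of this interval was kept.

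**Figure D4:**
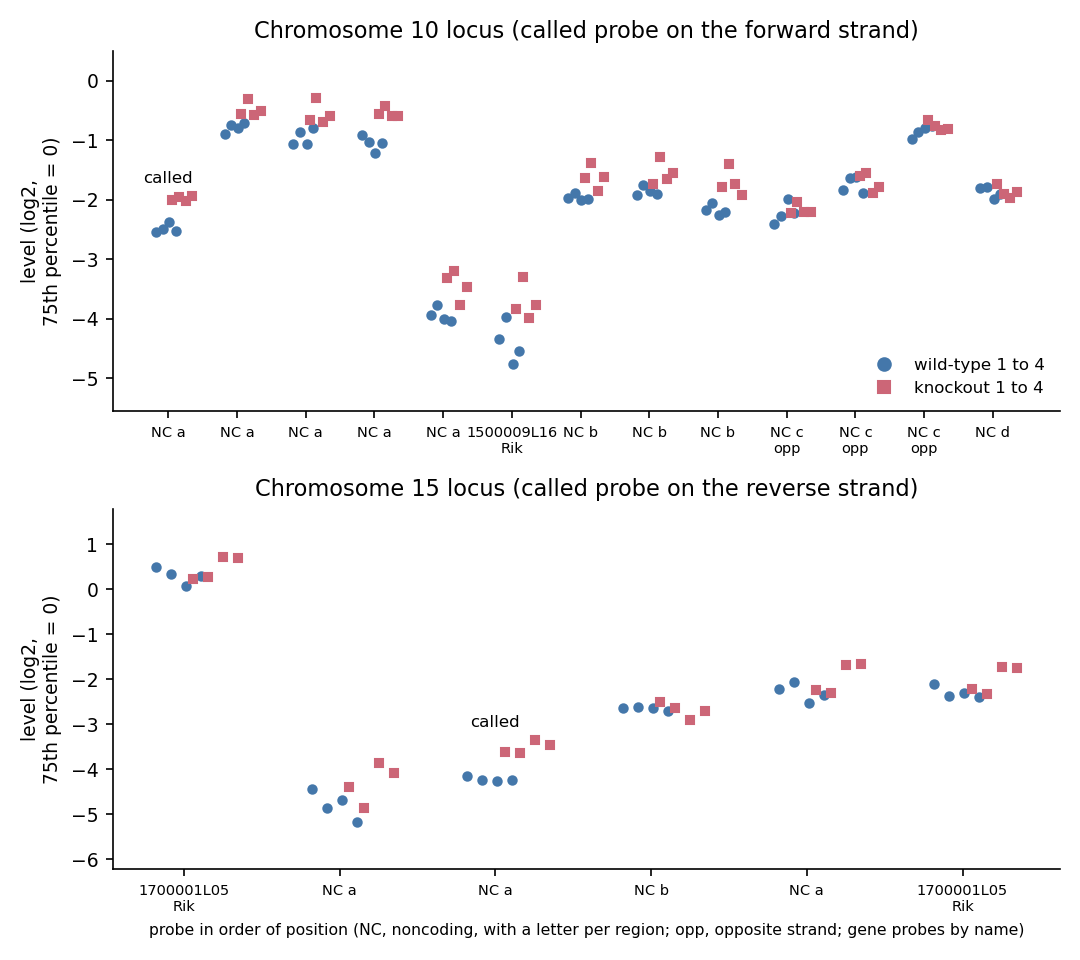
Log2 level of kept probes on each array around the called probe of the chromosome 10 locus (top, forward strand) and the chromosome 15 locus (bottom, reverse strand), in order of position and labelled by region, with opposite-strand probes marked, and with wild-type samples as blue circles and knockout samples as red squares, replicates 1 to 4 from left to right. The 2 probes that passed the test are marked, and the 2 opposite-strand probes of chromosome 10 that lie 39496 and 39787 bp away are not drawn. At the chromosome 10 locus 8 forward-strand noncoding probes have every knockout sample above every wild-type sample and the distant probe at the right does not, and at the chromosome 15 locus 1 probe does.

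Regions with several kept probes were compared probe by probe. Among 1095 regions with at least 3 kept probes, 317 had all differences above 0, 128 had all below 0 and 650 were mixed. In 9 of these regions at least 3 probes separated the groups, 7 higher and 2 lower in the knockout samples. The chromosome 10 pair are among the 7. None of the others passed the test, by single probe or by region mean. Of all kept noncoding probes 3.56% separated the groups upward and 1.48% downward, beside 4.23% of all kept probes each way. The share of differences above 0 was 62.0% over all kept noncoding probes. Probes of a region were read on the same arrays, and no such count was made over other genes with several probes. Whether 9 regions are many is therefore not known.

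The brightest of these regions was chr2:156213798-156216885, reverse strand, which holds a gene probe for Norad, a cytoplasmic RNA that binds Pumilio proteins. Its probe A_30_P01022011 read 4.17, 3.83, 3.86 and 3.92 in wild-type and 4.35, 4.31, 4.18 and 4.17 in knockout samples. All 3 probes separated the groups, with differences of 0.37, 0.31 and 0.25, although wild-type 1 stood close to the knockout samples in each. The region mean differed by 0.31 (SE 0.09, adjusted p = 0.200, limma).

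In chr17:38132217-38157667, forward strand, 4 of 8 probes were kept and all 4 separated the groups, by 0.37 to 0.97. A_30_P01031377 read -2.59, -2.28, -2.41 and -2.48 in wild-type and -1.64, -2.01, -1.90 and -1.84 in knockout samples, a difference of 0.59 (SE 0.10, adjusted p = 0.074, limma). It overlaps the neighbouring A_30_P01021320 and A_30_P01031739 in sequence, so these are not separate readings. All 4 kept probes lie between 38149850 and 38150029. A_30_P01031739, with the largest difference of 0.97, was well above background on 1 wild-type and 4 knockout arrays. It thus passed the filter mainly through the knockout samples. The nearest gene probe, for the olfactory receptor Olfr129, lies on the opposite strand and was not kept.

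The remaining regions had smaller or less even differences. In chr1:133839368-133839762, forward strand, 3 adjacent probes, the nearest gene probe of which is Nucks1, were higher in every knockout sample by 0.31 to 0.37 on average. In chr8:72663625-72673010, forward strand, which holds a probe for Borcs8, a subunit of a lysosome-positioning complex, 4 of 8 probes separated the groups, but the 8 differences ran only from 0.05 to 0.16. In chr8:124355710-124401160, reverse strand, near the amino acid transporter gene Slc7a5, 3 of 5 probes separated the groups, with wild-type 1 far below the rest. A_30_P01025936 read -4.58, -3.41, -3.88 and -3.25 in wild-type and -3.06, -3.06, -3.24 and -3.12 in knockout samples. Lower values in all knockout samples were found in chr8:119092623-119094219, reverse strand, where 3 adjacent probes differed by -0.15, -0.27 and -0.31. The nearest gene probe, for Cdyl2, differed by -0.33 (adjusted p = 0.212, limma).

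Most of the largest differences without overlap came from dim probes. The 10 largest upward differences among probes whose groups did not overlap ran from 0.83 to 1.26 with adjusted p-values from 0.071 to 0.389 (limma), 9 of them had a mean level below the noncoding median of -3.11, and 2 were well above background on all 8 arrays. The 10 largest downward differences ran from -0.96 to -0.70 with adjusted p-values from 0.078 to 0.250, 7 lay below that median, and 6 were well above background on all 8 arrays. None passed the test. After normexp background correction with quantile normalization the former were 0.19 to 0.74 and the latter -0.61 to -0.20. Where overlap was allowed, the noncoding differences ran from -2.15 to 1.84. Since the probes were ranked by their difference, these values are a description of the extremes.

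The largest upward difference without overlap, A_30_P01023935 in chr11:95483973-95490751, read -6.84, -5.95, -5.37 and -6.04 in wild-type and -4.76, -4.97, -4.71 and -4.73 in knockout samples. It passed the detection call on every knockout array and on none of the wild-type arrays. The other kept probe of its region differed by 0.26. In chr5:35975265-35982561, forward strand, A_30_P01022310 was the brightest of these 10. It read -1.87, 0.08, -0.36 and -0.17 in wild-type and 0.44, 0.41, 0.18 and 0.24 in knockout samples, and its difference of 0.89 was 0.46 without wild-type replicate 1. All 4 kept probes of this region had large differences, from 0.85 to 1.12, at mean levels from -3.09 to 1.80. The brightest, A_30_P01024606, read 0.13, 2.11, 1.38 and 1.72 in wild-type and 2.40, 2.52, 1.82 and 2.34 in knockout samples, a difference of 0.94 (SE 0.39, adjusted p = 0.377, limma) that was 0.54 without wild-type 1. In each of the 4 probes wild-type 1 was the lowest sample, and A_30_P01022310 alone separated the groups.

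Some of the downward differences had a nearest gene probe that was also lower in the knockout samples, and others had one that was higher. The higher ones were Anxa5 (778 bp away), D130017N08Rik and Firre, by 0.08, 0.24 and 0.13. A_30_P01024838 lies 280 bp from a probe for Trim30c, of the Trim30 family, on the same strand. It read -4.45 to -3.78 in wild-type and -5.21 to -4.74 in knockout samples, without overlap, a difference of -0.89 (SE 0.16, adjusted p = 0.078, limma), and Trim30c itself differed by -0.80 (adjusted p = 0.110). A_30_P01022549 lies in a region that holds a probe for Ifi203-ps, a pseudogene of the interferon-inducible Ifi200 family. It read -0.24, 0.17, -0.82 and -0.26 in wild-type and -1.31, -0.83, -1.09 and -0.85 in knockout samples, and all 5 probes of the region were lower, by 0.49 to 0.73 on the log2 scale. The margin was small, as wild-type 3 stood just above knockout 2.

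The neighbouring region chr1:175654606-175672031, forward strand, is annotated opposite Ifi207, another Ifi200 gene. Its probe A_30_P01027011 differed by -0.75 (adjusted p = 0.154, limma), 4 of its 5 kept probes were below 0, and Ifi207 differed by -0.44 (adjusted p = 0.190). These neighbourhoods, of genes known for induction by interferon, were picked out after their values were seen, and no list of such genes was tested here.

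On the X chromosome, A_30_P01029895 lies in chrX:47893703-47996700, reverse strand, the region of Firre, a nuclear noncoding RNA that escapes X inactivation. It read -3.09, -3.86, -3.73 and -3.51 in wild-type and -4.47, -4.54, -3.96 and -4.26 in knockout samples, a difference of -0.76 (SE 0.19, adjusted p = 0.171, limma). The 5 kept probes of the region had a median of -0.07, and the Firre gene probe differed by 0.13. The largest of the 5 was thus unlike the middle of its region.

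The detection call changed completely with genotype for few probes. Well above background on all 4 knockout and no wild-type arrays were 5 noncoding probes (0.0698% of those kept), where all kept probes gave 0.0444%. The reverse held for 2 (0.0279%), where all kept probes gave 0.0592%. Bounds were set from the mean of the bright group against, per array of the dim group, the higher of the lowest signal well above background and the probe's own value. They apply to the processed signal of the main fit and carry no sampling error, so they are not minimum changes under another background correction. By these bounds the probes on in the knockout samples were at least 1.83-fold (A_30_P01023935), 1.98-fold (A_30_P01031618), 2.20-fold (A_30_P01031990), 1.70-fold (A_30_P01021271) and 1.41-fold (A_30_P01032873) higher there. Their adjusted p-values ran from 0.071 to 0.385 (limma). For A_30_P01031990 and A_30_P01032873 every wild-type value was above the lowest signal well above background, so the bound is the ratio of the measured means. The groups of A_30_P01032873 overlapped, and after normexp background correction the log2 differences of these probes were 0.22 and 0.003. After the same correction the log2 differences of A_30_P01023935, A_30_P01031618 and A_30_P01021271 were 0.15, 0.16 and 0.13, below their bounds.

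A_30_P01023083, on in the wild-type samples alone, was at least 2.02-fold higher there by the same kind of bound. It read -4.94, -4.41, -5.33 and -4.70 in wild-type and -6.23, -5.23, -7.54 and -5.79 in knockout samples (adjusted p = 0.282, limma), and the values overlapped although the calls did not. It lies 400 bp from a probe for Herc6, an interferon-inducible ubiquitin ligase gene on the opposite strand, which differed by -0.53 (adjusted p = 0.251). A_30_P01029918, the other, was at least 1.26-fold higher in wild-type samples, a bound that is again the ratio of the measured means. It read -4.37, -4.43, -4.54 and -4.74 in wild-type and -4.83, -4.68, -4.98 and -4.95 in knockout samples, and the groups overlapped at wild-type 4 and knockout 2. It lies 12 bp from a probe for Mrln, the muscle RNA that encodes the micropeptide myoregulin, and that gene probe differed by 0.16.

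Noncoding RNAs with established names were counted as a list. Of 44, 34 had a probe and 29 were kept. Mirg fell, and no other listed RNA passed in either direction, beside 0.178% of all kept probes lower and 0.0296% higher. The counts were the same without replicate 4. The median difference was 0.04. Meg3, the maternally expressed RNA at the start of the same domain, averaged 5.86 ± 0.08 (SD, n = 4) in wild-type and 6.28 ± 0.11 (SD, n = 4) in knockout samples, a difference of 0.42 without overlap (SE 0.08, adjusted p = 0.105, limma).

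Several of these RNAs lie within noncoding regions annotated on their own strand. For 13 of them there were 19 such regions with 73 probes, of which 54 (74.0%) were kept. Of these regions 2 hold gene probes of a pair of RNAs, 1 of Malat1 and Neat1 and 1 of Tsix and Jpx, so their probes cannot be assigned to either RNA. None of the 54 passed the test, 2 were higher without overlap and 0 lower. Over all kept probes 0.207% passed, and 4.23% were higher and 4.23% lower without overlap. Of the 54 differences, which ran from -0.73 to 0.46, 36 were above 0. The share above 0 was 62.0% over all kept noncoding probes and 55.8% over all kept probes. The gene probe of Mir17hg, a microRNA host RNA, differed by 0.06 and the 3 probes of chr14:115443612-115445950 by 0.12 to 0.15, and the 2 of the 54 that separated the groups were both among these 3. The 6 kept probes of the wider chr14:115423660-115463160 differed by -0.13 to 0.17 and none separated the groups. Tug1 differed by 0.04, the 3 probes of chr11:3539787-3548811 by -0.04 to 0.05, and the 7 kept probes of the wider chr11:3538125-3554450 by -0.16 to 0.21. Pvt1, which neighbours Myc, differed by 0.26, and the 8 kept probes of its 3 regions by -0.04 to 0.33.

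At the X-inactivation centre, Xist itself was read by 1 gene probe, which no noncoding region on its strand held, and its values follow the arrays listed above. Ftx, a noncoding activator of Xist, stood at -3.46, -3.37, -3.56 and -3.31 in wild-type and at -3.10, -3.10, -3.20 and -2.91 in knockout samples, higher in every knockout sample by 0.35 on average (SE 0.09, adjusted p = 0.186, limma). The 4 probes of chrX:100745320-100819322, reverse strand, which holds a gene probe for Ftx, ran from -0.13 to 0.46. Jpx differed by -0.01, or 0.22 without replicate 4, while the 3 probes of chrX:100688896-100701764 ran from 0.13 to 0.39. None of these passed the test, and they moved between arrays in which Xist and Ddx3y also varied.

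H19, an imprinted RNA abundant in fetal liver, averaged 9.81 ± 0.09 (SD, n = 4) in wild-type and 9.78 ± 0.06 (SD, n = 4) in knockout samples. Neat1, the scaffold of paraspeckles, differed by 0.02, and Gas5, a snoRNA host RNA, by 0.01, and both were below 0 without replicate 4 (-0.03 and -0.04). Peg13, an imprinted RNA, read 1.73 to 1.82 in wild-type and 1.43 to 1.65 in knockout samples, a difference of -0.26 without overlap (SE 0.08, adjusted p = 0.240, limma).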

How the data were processed

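The scanner tables that the authors deposited were made with Agilent Feature Extraction (version 10.10 in the submitters' processing notes) and give spot intensity on a linear scale, with mm9 positions and probe sequences per the file headers. The authors also deposited a log2 value table of 27084 probes (4959 of them noncoding), used as an alternative, whose column medians ran from 8.84 to 8.86. It follows the log2 median signal without gene centring.

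Control spots and flagged spots were left out, spots of a probe averaged, and log2 of the processed signal was reduced by the 75th percentile of the array over non-control probes. Probes well above background (the scanner's own call) on at least 4 of 8 arrays were tested with limma 3.58.1 (R 4.3.3) on all 33769 such probes, two-sided, without covariates, with Benjamini-Hochberg adjustment at 0.05. In simulated arrays of the knockout vs wild-type comparison over 33769 probes, 31.0%, 78.5% and 98.5% of changes of 0.5, 1 and 2 log2 were recovered, with 5.24% of calls on unchanged probes. The noise was drawn independently for each probe, and these shares are over all kept probes. More probes were changed in the simulation than passed in these data (70), which loosens the adjusted threshold. The shares are therefore likely to overstate recovery at the threshold met here. Noncoding probes had wider confidence intervals (median 0.33 to either side, beside 0.26 for other probes), and recovery for them alone was not simulated.

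Probes named were those called, the 10 largest differences each way without overlap, the 10 brightest, those that switched detection completely, Mirg, Meg3 and the nearest gene probes. Regions with 3 separating probes and single listed RNAs were picked after their values were seen. Probes on chromosome 18 were counted and not named, and 1 of the brightest probes is not reported here. Members, lists and rules were chosen with earlier results of these data known. Same-numbered samples of the groups did not deviate together (r from -0.10 to 0.05), and differently numbered samples gave r from -0.10 to 0.15. No pairing by number was seen, but with 4 arrays per group this cannot exclude it. Gene names were updated through a RefSeq table of another assembly, by accession for 27235 probes and by synonym for 565. Precision is limited by 4 arrays per group, and the p-values measure the spread between these samples.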

Additional observations from a re-analysis of the deposited data

Results flagged for a closer look

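Of 140 groups of 4 values examined for the named noncoding probes, 5 held an array far from the other 3, where chance flags about 1 in 20. For A_30_P01026738, in the region of Irf2bpl, knockout 1 read -2.05 and the others -3.09 to -2.96. For A_30_P01024020, in the chromosome 1 region near Nucks1, wild-type 1 read -0.95 and the others -0.57 to -0.49. For A_30_P01019809, on the reverse strand of the chromosome 10 locus, knockout 1 read -3.25 and the others -2.94 to -2.88. For A_30_P01023751, in the Borcs8 region, wild-type 2 read -0.40 and the others -0.28 to -0.27. For the called chromosome 15 probe A_30_P01031758, wild-type 1 read -4.15 and the others -4.26 to -4.25.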

How the results depend on the processing

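The count of noncoding probes called lower (0) became 1 with quantile normalization, normexp correction, normexp with quantile normalization, the median signal or Xist as a covariate, 3 with the deposited value table or Ddx3y as a covariate, 5 at an adjusted p under 0.1, 154 with array quality weights, and 0 to 2 when 1 replicate was left out. The count called higher (2) became 1 with quantile normalization, normexp correction, a filter at 1 array, no filter, or without wild-type 3 and 4 or knockout 3 and 4. It became 0 with the replicate block, without both replicate 4 arrays, with 1 probe per gene name, at an adjusted p under 0.01 or with region means (added after the data were seen), 4 with the value table or Xist as a covariate, 14 at an adjusted p under 0.1, 189 with array weights, and 0 to 4 when 1 replicate was left out. It was 0 without wild-type 3, knockout 3 or knockout 4, 1 without wild-type 2, wild-type 4 or knockout 1, and 4 without wild-type 1. The median difference ran from 0.02 to 0.07 when 1 replicate was left out, Mirg from -2.82 to -2.59 and Meg3 from 0.37 to 0.45, and the 25 probes that were called, had the 10 largest differences each way or switched detection kept their direction under each alternative that tested them. Of the listed RNAs named, Neat1, Gas5 and Jpx changed sign without replicate 4. The cause of these moves was not tested.

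With the less strict detection flag of the scanner 11054 noncoding probes passed in place of 7162, and with 1 replicate left out 6944 to 7125 did. The span of chromosome medians was 0.42 with normexp and quantile normalization and 0.71 with the filter at all 8 arrays, and the forward minus reverse gap in level was -0.086 and -0.032. Of the intervals probed on both strands, forward-only cases numbered 98 with 1 array sufficient and 58 with the less strict flag, reverse-only cases 91 and 60, and silent ones 43 and 25, or 135 with all 8 arrays required. Among the known noncoding RNAs, 2 were lower and 4 higher with array weights, and 1 was higher with a trended, robust variance, against 1 and 0. Dim probes limit the comparison, and both called differences were smaller after normexp correction.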
